A study of Mus musculus with 9 samples.

Results

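The genes described here are 34 members of the vacuolar ATPase and of the nutrient-sensing machinery on the lysosomal surface, out of 33641 genes in the deposited table. They were listed by name: the subunits of the proton pump, the Ragulator scaffold, the Rag GTPases with folliculin, the TFEB family of transcription factors, and mTOR with raptor. Estimated counts of all transcripts of a symbol were summed, and all 34 members passed the filter on low counts and were among the 17398 genes tested. Gene expression had been measured by poly(A)-selected, stranded RNA sequencing in 9 untreated mice aged 7.5 months, 3 each of wild type (WT), PG9V and PG9VN, 1 library per mouse. The dissected piece contained thalamus, hypothalamus and midbrain. As background that the labels do not give, both mutant lines lack progranulin (Grn), which is made for secretion and for lysosomes. How the lines differ from each other is not described here. The labels give no strain, sex, litter or batch. Summed counts of Y-linked genes were 214 in WT replicate 1 and 191 in PG9V replicate 2. The other 7 libraries, among them all of PG9VN, held 3852 to 5903, so these counts were not balanced between genotypes.

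The vacuolar ATPase is a rotary pump that acidifies lysosomes. Its cytosolic V1 sector burns ATP, and its membrane V0 sector carries protons across the membrane. Several positions in the pump are filled by alternative isoforms that differ between cell types: d1 or d2 at the base of the stalk, and a1 to a4 at the proton channel, where a1 is the main neuronal form. The isoforms d2 (Atp6v0d2) and a3 (Tcirg1) are best known from osteoclasts and macrophages. On the lysosomal surface the pump contacts Ragulator, which anchors the Rag GTPases. These recruit the kinase complex mTORC1 when amino acids are plentiful, and mTORC1 keeps the TFEB family, activators of lysosomal genes, out of the nucleus.

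Total estimated counts were 27150311 to 35349014 per library. Grn was at 46.5 to 55.5 CPM (CPM are counts scaled by library size and TMM factors) in WT, 2.59 to 4.72 in the PG9V libraries and 3.58 to 4.71 in the PG9VN libraries, so that every mutant library lay below every WT library. The summed CPM of 15 microglia and macrophage markers was 471 to 536 in WT, 833 to 1225 in the PG9V mice and 1712 to 2268 in PG9VN. That of 10 storage phagocyte markers was 386 to 450, 1278 to 2713 and 4750 to 7281. For 15 neuron markers it was 8028 to 8217, 6913 to 7334 and 5445 to 6972. PG9VN replicate 2 stood apart: 10 hypothalamus markers summed to 7.05 CPM there. PG9VN replicates 1 and 3 held 368 and 532 CPM, both above the 157 to 247 of the WT and PG9V libraries. For 9 midbrain markers the PG9VN libraries held 96.1, 13.1 and 41.3 CPM, all below the 97.6 to 166 of WT and PG9V. PG9VN replicate 2 also held the highest of the 9 values for 21 of the 34 members. PG9VN replicate 3 held the lowest value for 12 members and WT replicate 2 for 9. No share over all genes tested stands beside these counts, so they cannot be read as a trait of the members. In PG9VN replicate 2, cortex and hippocampus markers summed to 692 CPM against 348 to 543 elsewhere, and oligodendrocyte markers to 15622 against 6741 to 12177. Other libraries differed too: cerebellum markers were at 426 CPM in PG9V replicate 3 (112 to 209 elsewhere). Choroid plexus markers were at 108 in WT replicate 2 (531 to 1991 elsewhere). In bulk tissue, fewer cells of a type, less RNA per cell and a difference in the dissected piece cannot be told apart.

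In PG9VN brain the phagocyte isoforms of the pump, Atp6v0d2 and Tcirg1, rose and had the largest changes of the 34 members, while the log2 fold changes of the other pump members ran from -0.31 to 0.66. By edgeR's quasi-likelihood test with Benjamini-Hochberg adjustment over all genes tested, 8 of 34 members (23.5%) were higher in PG9VN than in WT, where 11.5% of all genes tested were called higher, and 1 (2.94%) was lower, where 7.22% were. In PG9V against WT, 1 member was higher (background 1.62%) and 0 were lower (background 0.149%, 0 by DESeq2, and 0 at an unadjusted p under 0.05). In PG9VN against PG9V, 2 were higher (background 2.72%) and 0 were lower (background 0.667%, 0 by DESeq2, and 1 at an unadjusted p under 0.05). The comparisons with WT share their control libraries. The median log2 fold change over the members was 0.12, 0.08 and 0.06 in these comparisons in turn, beside 0.02, 0.01 and 0.01 over all genes tested. The number of members higher in PG9VN than in WT was 4 when WT replicate 1 or WT replicate 2 was left out, 5 when WT replicate 3 was, and 8 when PG9VN replicate 2 was. Higher calls over all genes moved as well, from 2002 to 1299, 1446 and 1276 without WT replicates 1, 2 and 3. Without PG9VN replicate 2 there were 2365.

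**Figure D1:**
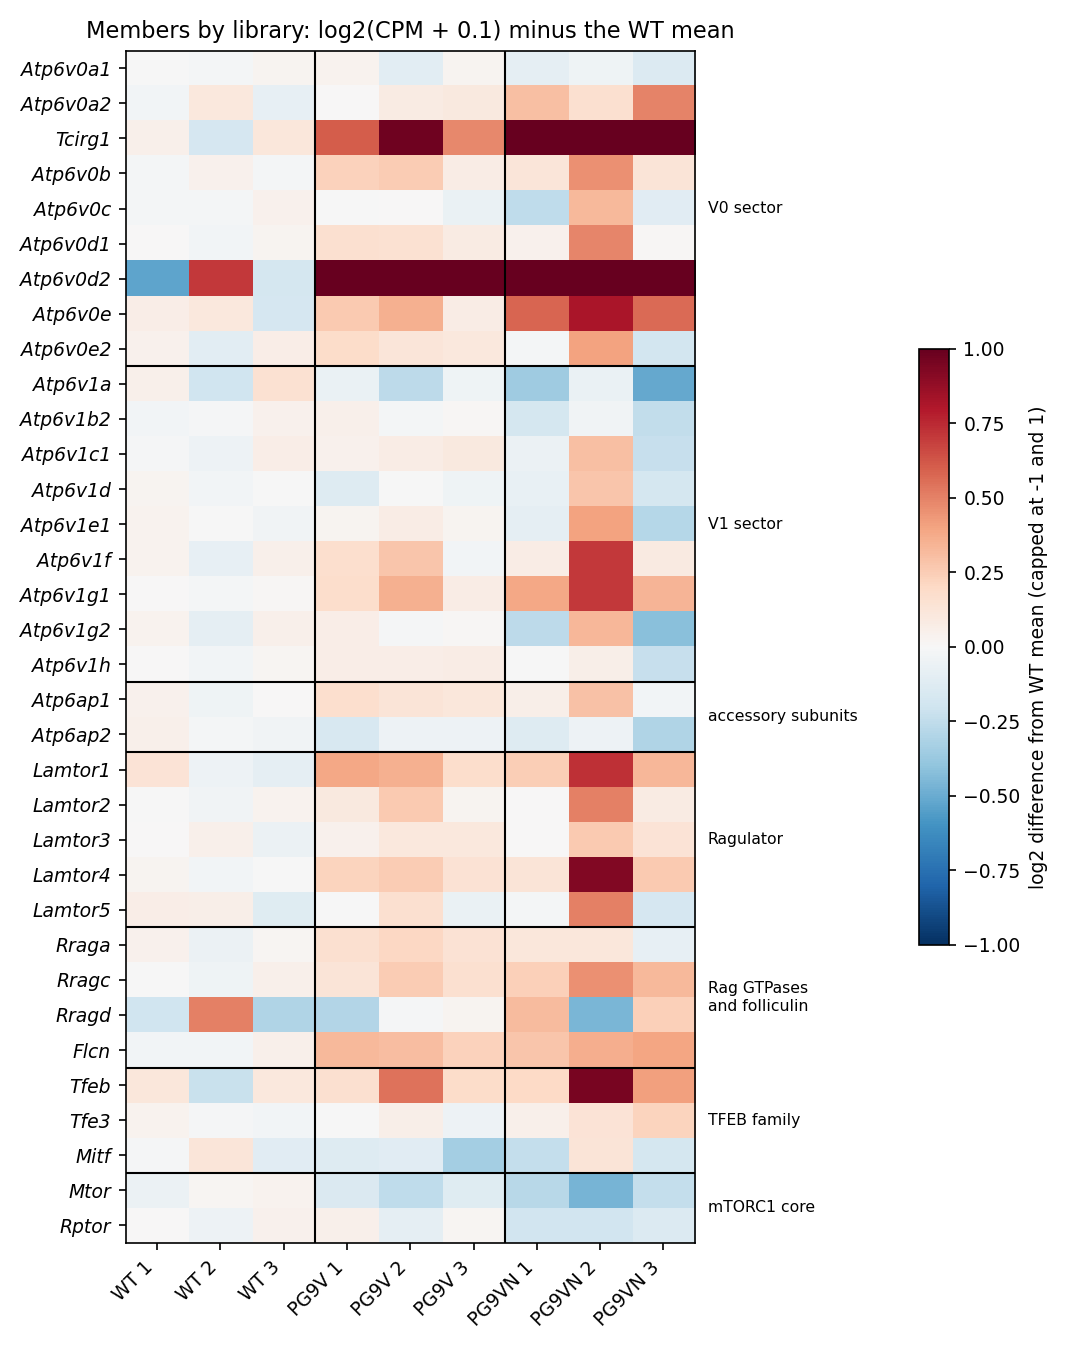
Each of the 34 members (rows, grouped by role) in each of the 9 libraries (columns), as log2(CPM + 0.1) minus the mean of the 3 WT libraries, with colours capped at -1 and 1. Atp6v0d2 and Tcirg1 stand out in the 6 mutant libraries. PG9VN replicate 2 holds the highest value for 21 members, a count without a share over all genes tested beside it.

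Atp6v0d2 encodes the d2 stalk subunit and was all but missing from WT brain. Its estimated counts were 0, 4 and 1 in the WT libraries, 88, 180 and 98 in PG9V, and 319, 544 and 535 in PG9VN. In CPM these were 0, 0.135 and 0.0279 in WT, 3.13, 5.97 and 3.13 in PG9V, and 11.5, 20.1 and 18.6 in PG9VN. The 3 genotypes did not overlap, with each PG9VN library above the highest PG9V library. Because WT lay at or near the floor of 3 counts, the ratio of summed counts corrected for depth is the better measure of size in the comparisons with WT. It was 77.0 for PG9V over WT (95% exact interval 32.7 to 238), 315 for PG9VN over WT (135 to 972) and 4.09 for PG9VN over PG9V (3.65 to 4.60), and these intervals cover counting error only. WT replicate 2 held 4 of the 5 WT counts. Without it, an alternative chosen after seeing the data, the ratio over WT was 264 for PG9V (47.1 to 10466) and 1082 for PG9VN (194 to 42747), so 1 library decides its size. The log2 fold changes fitted by edgeR were 6.15 ± 0.62 (SE) for PG9V against WT (adjusted p = 0.0016) and 8.19 ± 0.60 for PG9VN against WT (adjusted p = 5.9e-05). For PG9VN against PG9V the fit gave 2.04 ± 0.37 (95% interval 1.19 to 2.88, adjusted p = 0.024). Over the 18 alternatives the changes against WT ran from 5.65 to 7.70 for PG9V and from 7.68 to 9.74 for PG9VN. The call between the lines was lost without PG9V replicate 1, PG9V replicate 3 or PG9VN replicate 3, with an adjusted p of at most 0.122. Gpnmb, a gene of lipid-laden phagocytes, followed the same order of genotypes, at 3.99 to 5.08 CPM in WT, 170 to 532 in the PG9V mice and 1183 to 1747 in PG9VN. The part that the number of phagocytes played in the Atp6v0d2 values was not tested.

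Tcirg1 encodes a3, the proton-channel isoform that osteoclasts need to dissolve bone. Its CPM was 21.2, 18.2 and 22.1 in WT, 31.1, 40.3 and 28.5 in PG9V, and 56.8, 67.5 and 71.3 in PG9VN. All PG9V libraries lay above all WT libraries and below all PG9VN libraries. Tcirg1 rose 3.18-fold in PG9VN against WT (log2 1.67 ± 0.15, adjusted p = 0.00013), and it was called under all 18 alternative settings. It was 1.96-fold higher in PG9VN than in PG9V (log2 0.97 ± 0.15, adjusted p = 0.014), a call lost under the same 3 omissions as that of Atp6v0d2. The difference between PG9V and WT was 1.62-fold (log2 0.70 ± 0.15) with an adjusted p of 0.052, and it passed the threshold under 9 of the 18 alternatives. Part of the Tcirg1 signal came from transcripts annotated with a retained intron. The protein-coding transcript Tcirg1-201 held 40.5 to 48.6% of the gene's estimated counts in WT and 38.9 to 50.3% in PG9VN, so that its share overlapped between genotypes.

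The alternative subunits at the same positions did not move in this way. Atp6v0d1, the d1 subunit found in most cells, was at 146, 143 and 149 CPM in WT, 163, 162 and 155 in PG9V, and 150, 205 and 147 in PG9VN. PG9VN replicate 2 was the high library, and PG9VN and WT overlapped, while all PG9V libraries lay above all WT libraries. The log2 fold change was 0.20 ± 0.12 in PG9VN against WT (95% interval -0.08 to 0.47, adjusted p = 0.30) and 0.13 ± 0.12 in PG9V (95% interval -0.14 to 0.41, adjusted p = 0.69). Atp6v0a1, the neuronal a1 isoform, was at 420, 415 and 429 CPM in WT, 432, 391 and 430 in PG9V, and 396, 409 and 383 in PG9VN. Its PG9VN values lay just below all WT values, and the difference did not pass the test (log2 -0.09 ± 0.08, 95% interval -0.27 to 0.09, adjusted p = 0.48).

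The log2 ratio of Atp6v0d2 to Atp6v0d1 (CPM with 0.1 added) was -9.98 ± 0.65 (SD, n = 3) in WT, -5.33 ± 0.51 in PG9V and -3.34 ± 0.36 in PG9VN. For Tcirg1 against Atp6v0a1 it was -4.36 ± 0.12 in WT, -3.66 ± 0.34 in PG9V and -2.61 ± 0.19 in PG9VN. Neither ratio overlapped between any pair of genotypes. Each of the 6 comparisons gave p = 0.1 in an exact two-sided permutation test, before and after adjustment over the 6, which is the smallest p that 3 libraries against 3 allow, so this test could not pass 0.05. Levels of different genes can be set side by side only per transcript length. On that scale d2 made up 0.0225% of d1 plus d2 in WT, 1.58% in PG9V and 5.97% ± 1.41 (SD, n = 3) in PG9VN. The a3 share of the a1 to a4 sum was 8.42% ± 1.07 in WT, 13.4% ± 2.96 in PG9V and 23.4% ± 1.73 in PG9VN, and the a1 share was 79.1%, 74.0% and 63.5%. With protein-coding transcripts alone, an alternative chosen after seeing the data, the a3 share was 3.77%, 5.45% and 11.0%. So d1 and a1 remained the most abundant forms at their positions in every genotype by either count.

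**Figure D2:**
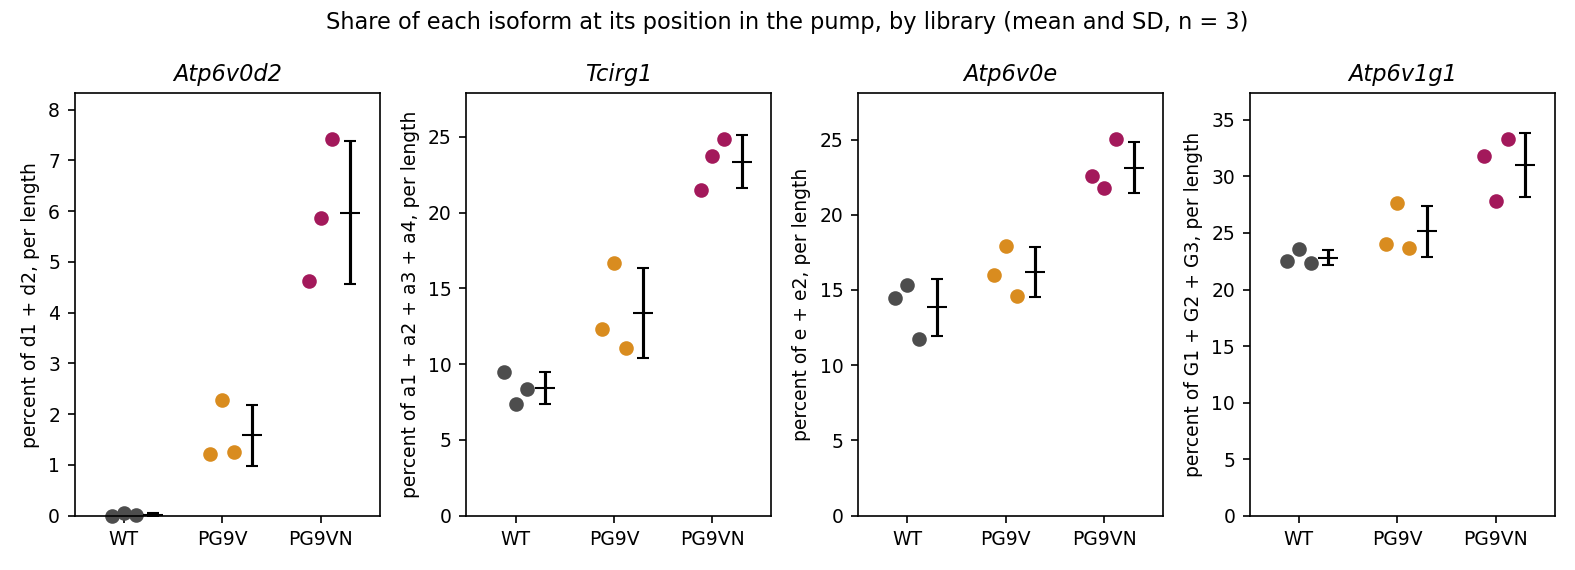
Share of 1 isoform among the alternatives at the same position of the pump, in percent of length-scaled counts, for each library (dots) with mean and SD (bars) of 3 libraries per genotype. The d2 share runs from 0.0225% in WT to 5.97% in PG9VN and the a3 share from 8.42% to 23.4%, with no overlap between genotypes for either.

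Among the other V0 subunits, Atp6v0e, a small membrane subunit found in most tissues, rose in PG9VN. It was at 25.8, 26.6 and 21.9 CPM in WT, 29.7, 31.6 and 25.9 in PG9V, and 37.0, 43.5 and 36.7 in PG9VN. The PG9VN libraries lay above all others, while PG9V and WT overlapped. The change against WT was 1.58-fold (log2 0.66 ± 0.11, adjusted p = 0.0047) and was called under all 18 alternatives. It was carried by the short transcript Atp6v0e-201, at 10.9 to 14.3 CPM in WT and 26.1 to 34.8 in PG9VN. The longer Atp6v0e-202 ranged from 11.0 to 13.1 CPM among WT mice and from 8.61 to 10.9 in PG9VN. The share of the short form thereby went from 49.8 to 55.6% of the gene's estimated counts (WT) to 70.6 to 80.2% (PG9VN), a description of estimates that divide shared reads. The brain-enriched alternative Atp6v0e2 did not pass the test (219 ± 13.6 CPM in WT, 233 ± 50.6 in PG9VN, log2 0.09 ± 0.14, 95% interval -0.23 to 0.40). Per length, Atp6v0e made up 13.8% ± 1.88 of the 2 e forms in WT, 16.2% ± 1.68 in PG9V and 23.1% ± 1.71 in PG9VN.

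Atp6v0a2, the a2 isoform of the Golgi and endosomes, was at 84.2, 92.3 and 81.3 CPM in WT, 86.2, 91.0 and 91.6 in PG9V, and 106, 96.1 and 121 in PG9VN. PG9VN lay above WT in all libraries, with a log2 fold change of 0.32 ± 0.10 and an adjusted p of 0.046, a call lost under 12 of the 18 alternatives (log2 0.23 to 0.45). The proteolipids that form the proton-carrying ring were not called. Atp6v0c had 521, 521 and 543 CPM in WT, and 442, 661 and 488 in PG9VN, where replicate 2 was the high one. Atp6v0b was at 140 to 146 CPM in WT and 154 to 195 in PG9VN, without overlap (log2 0.24 ± 0.11, adjusted p = 0.14).

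In the catalytic V1 sector, 1 of 9 members (11.1%) was called higher in PG9VN against WT, beside 11.5% of all genes tested. The sector's median log2 fold change with all libraries was 0.02. The called gene was Atp6v1g1, the widely expressed form of the G subunit of the peripheral stalk. It was at 68.1, 66.9 and 68.4 CPM in WT, 76.5, 86.6 and 71.5 in PG9V, and 88.5, 111 and 85.7 in PG9VN. WT lay below every mutant library, and PG9V and PG9VN overlapped. The change against WT was 1.40-fold (log2 0.49 ± 0.11, adjusted p = 0.016), and leaving out any 1 of the WT libraries raised the adjusted p above 0.05, to at most 0.0591. Its neuronal counterpart Atp6v1g2 was at 304, 279 and 308 CPM in WT and 247, 373 and 222 in PG9VN, with PG9VN replicate 2 above and the other PG9VN libraries below all of WT (log2 -0.08 ± 0.17, adjusted p = 0.78). Without PG9VN replicate 2, Atp6v1g2 was called lower (log2 -0.35, adjusted p = 0.012). Per length, the G1 form made up 22.8% ± 0.67 of the G subunits in WT, 25.1% ± 2.22 in PG9V and 31.0% ± 2.84 in PG9VN.

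The subunits that bind and split ATP were not called with all libraries. Atp6v1a, the catalytic A subunit, was at 416, 349 and 446 CPM in WT, 384, 335 and 391 in PG9V, and 314, 383 and 281 in PG9VN. The genotypes overlapped (log2 -0.31 ± 0.14 in PG9VN, 95% interval -0.62 to 0.01, adjusted p = 0.16), and without PG9VN replicate 2 the gene was called lower (log2 -0.44, adjusted p = 0.022). Atp6v1b2, the brain form of the B subunit, was at 482 to 505 CPM in WT and 413 to 478 in PG9VN, without overlap (log2 -0.15 ± 0.09, adjusted p = 0.26). For Atp6v1c1, Atp6v1d, Atp6v1e1 and Atp6v1h, stalk and regulatory subunits, the log2 fold changes in PG9VN against WT ran from -0.05 to 0.04. Their 95% intervals lay between -0.31 and 0.38. Without PG9VN replicate 2 these genes were at -0.14, -0.13, -0.19 and -0.12 in turn, and none was called. With the length correction they were at -0.08, -0.02, -0.16 and -0.17. Atp6v1f, a small rotor subunit, was at 60.3 to 65.9 CPM in WT, while the PG9VN libraries held 67.1, 104 and 67.9 (log2 0.32 ± 0.16, adjusted p = 0.21). The accessory subunits Atp6ap1 and Atp6ap2, which help the pump assemble, had log2 fold changes of 0.11 ± 0.10 and -0.16 ± 0.09, and neither was called by edgeR, by DESeq2 or at an unadjusted p under 0.05.

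Over the 18 pump members other than d2 and a3, 3 were higher in PG9VN than in WT (16.7%, beside 11.5% of all genes tested), 0 were lower by edgeR, by DESeq2 or at an unadjusted p under 0.05, and the median log2 fold change was 0.03. Their 95% intervals all lay between -0.62 and 0.92 on the log2 scale, so a 2-fold change in either direction was outside each of them. None of the 3 brain-enriched forms Atp6v0a1, Atp6v0e2 and Atp6v1g2 was called by edgeR, by DESeq2 or at an unadjusted p under 0.05. In PG9V against WT, 0 of the 18 were called by any of these, and their intervals lay between -0.44 and 0.52. On simulated data for PG9VN against WT this test found 22%, 76% and 90% of planted 1.5-fold, 2-fold and 4-fold changes. The simulated data gave 101 calls, while the real comparison gave 2002 higher and 1256 lower calls. The adjustment is less strict where more genes are called, so these shares cannot be carried over to the real comparison. How many small changes were missed there at 3 mice per genotype is not known.

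**Figure D3:**
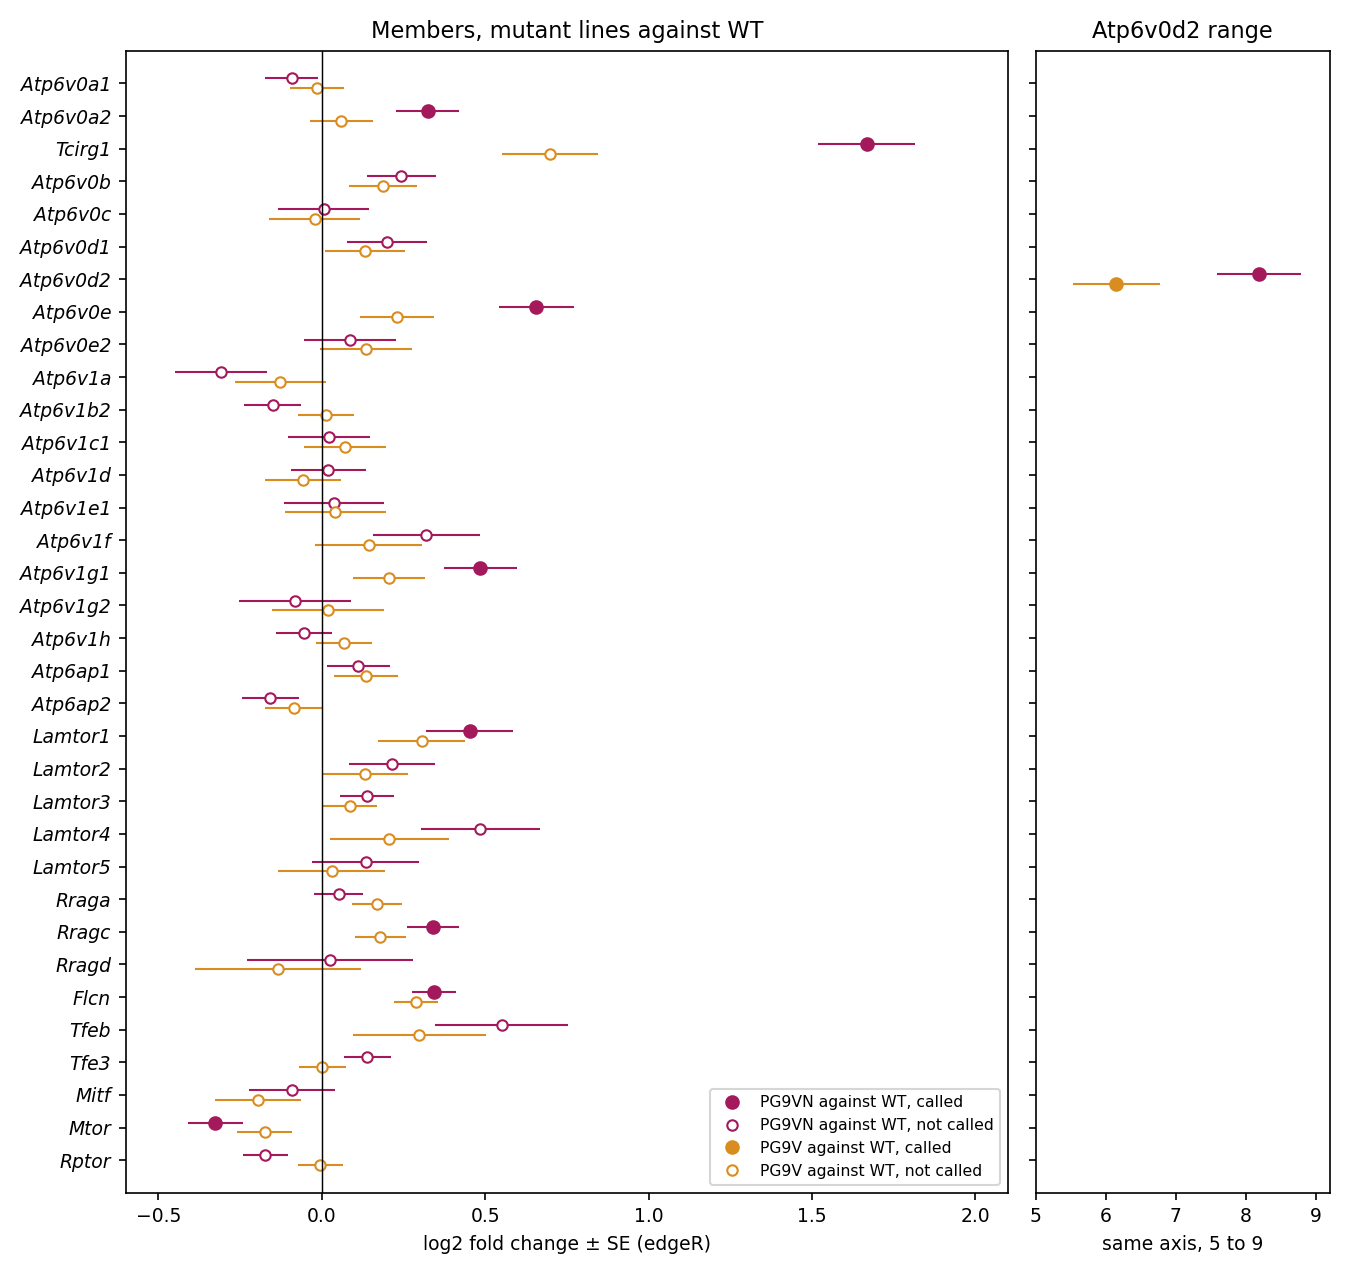
Log2 fold change ± SE of each member in PG9VN against WT (dark red) and PG9V against WT (orange), with filled symbols for an adjusted p under 0.05, and the range of Atp6v0d2 shown in a second panel on a compressed scale. Atp6v0d2 lies at 6.15 and 8.19, Tcirg1 at 0.70 and 1.67, and the other members between -0.33 and 0.66.

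Other pump isoforms, chosen as a list for comparison, were scarce in this tissue. Of 6 such genes 4 failed the filter on low counts: the kidney and inner ear forms Atp6v0a4 and Atp6v1b1 had 2 to 7 and 1 to 11 counts per library, Atp6v1e2 had 1 to 5 and Atp6v1g3 had 3 to 11. The 2 that were tested, Atp6v1c2 and Atp6ap1l, were not called in any comparison. Genes that mark osteoclasts, where d2 and a3 are most studied, were mixed. Acp5, a secreted phosphatase of osteoclasts and macrophages, rose in PG9VN, with 0.391 to 0.745 CPM in WT and 3.45 to 8.15 in PG9VN (log2 3.42 ± 0.44, adjusted p = 0.00093), and Nfatc1 rose by log2 0.71 ± 0.15 (adjusted p = 0.013). The fusion gene Dcstamp (3 to 9 counts per library) failed the filter on low counts and was not tested. The fusion gene Ocstamp (0.996 to 1.66 CPM), the receptor gene Oscar and the calcitonin receptor gene Calcr were not called, and Calcr was at 0 in PG9VN replicate 2.

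TFEB and its relatives bind the palindrome CACGTG, often within the longer GTCACGTG, in promoters of lysosomal genes. RefSeq promoters (250 bases before to 50 after the start site, build GRCm38.p6) were at hand for 27 of the 34 members, in 37 entries, and Atp6v0a2, Atp6v0d2, Atp6v1b2, Atp6v1c1, Atp6v1g1, Atp6v1h and Lamtor3 had no entry. CACGTG was found in 7 of the 37 entries (18.9%) and in 7.15% of all 32851 promoters in the table. GTCACGTG, which contains CACGTG, was in 2 entries (5.41%, against 2.25% of all), the related TCATGTG in 3 (8.11%, against 3.77%), and GAGGAAGT, a motif of the myeloid factor PU.1, in 0 (against 3.2%), with both strands searched for each. Among genes with an entry, CACGTG was present in 3 of the 5 called higher in PG9VN against WT (Atp6v0e, Lamtor1 and Rragc) and in 4 of the other 22 (Atp6v0b, Atp6v0d1, Atp6v1a and Lamtor4). No motif of the 4 was found in the Tcirg1 entries. The promoters of the 3 called genes are printed with that of Atp6v0d1, which held the longer motif and was not called. Sequences run 5′ to 3′ along the gene, and capitals mark the motifs found. They come from chr17:26676146-26676445 (plus strand) for Atp6v0e, where CACGTG began 3 bases past the start site, and chr7:101905587-101905886 (plus strand) for Lamtor1, where TCATGTG began 98 and CACGTG 68 bases before it. For Rragc the window was chr4:123917183-123917482 (plus strand), with CACGTG 112 bases before the start. For Atp6v0d1 it was chr8:105566015-105566314 (minus strand), with GTCACGTG beginning 5 bases before the start. A match is a description of letters and not evidence of binding.
Atp6v0e: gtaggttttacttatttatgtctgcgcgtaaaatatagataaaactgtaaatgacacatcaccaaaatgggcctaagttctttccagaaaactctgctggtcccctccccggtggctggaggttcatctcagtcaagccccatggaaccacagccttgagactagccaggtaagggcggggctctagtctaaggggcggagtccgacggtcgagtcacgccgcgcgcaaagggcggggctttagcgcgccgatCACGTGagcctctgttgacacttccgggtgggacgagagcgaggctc
Lamtor1: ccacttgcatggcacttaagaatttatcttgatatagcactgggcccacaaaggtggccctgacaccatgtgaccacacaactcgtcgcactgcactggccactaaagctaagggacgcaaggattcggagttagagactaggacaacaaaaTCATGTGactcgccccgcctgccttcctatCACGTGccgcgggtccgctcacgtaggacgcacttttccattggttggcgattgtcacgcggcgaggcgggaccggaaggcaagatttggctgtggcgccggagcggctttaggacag
Rragc: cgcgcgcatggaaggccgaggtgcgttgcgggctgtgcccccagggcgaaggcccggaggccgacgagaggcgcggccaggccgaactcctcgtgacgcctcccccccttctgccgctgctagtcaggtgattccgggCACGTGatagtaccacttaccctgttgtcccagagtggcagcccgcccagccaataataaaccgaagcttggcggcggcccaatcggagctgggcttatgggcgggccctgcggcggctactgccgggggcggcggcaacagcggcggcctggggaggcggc
Atp6v0d1: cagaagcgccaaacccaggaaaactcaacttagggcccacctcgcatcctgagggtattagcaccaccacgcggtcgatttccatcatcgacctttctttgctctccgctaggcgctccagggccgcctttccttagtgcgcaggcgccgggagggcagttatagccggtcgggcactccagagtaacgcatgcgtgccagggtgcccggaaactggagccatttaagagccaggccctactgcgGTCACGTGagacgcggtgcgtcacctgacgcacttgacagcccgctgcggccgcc

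Ragulator, the pentamer that tethers the Rag GTPases to the lysosome, had 1 of 5 members called higher in PG9VN against WT, beside 11.5% of all genes tested. All 5 had positive log2 fold changes (0.13 to 0.48), but with a correction for transcript length Lamtor2, Lamtor3 and Lamtor5 were at -0.06, -0.03 and -0.14, and Lamtor5 was at -0.10 without PG9VN replicate 2. Lamtor1, the lipid-anchored subunit that holds the complex on the membrane, was at 54.1, 47.6 and 46.2 CPM in WT, 64.2, 62.9 and 55.6 in PG9V, and 58.4, 81.9 and 62.0 in PG9VN. Every mutant library lay above every WT library, and the mutant lines overlapped. The change in PG9VN was 1.37-fold (log2 0.45 ± 0.13, adjusted p = 0.043) and was lost under 10 of 18 alternatives (log2 0.23 to 0.53). Exons of Lrrc51 lie on the opposite strand of Lamtor1 in the annotation, with 128 counts per library on average. The strand setting of the counting was not found in the labels. Other members had such overlaps with higher counts. These were Atp6v1e1 with Slc25a18 (2470 counts on average), Atp6v1h with Rgs20 (660) and Atp6v1g2 with Nfkbil1 (312). Lamtor4 was at 19.2, 18.5 and 18.8 CPM in WT, 22.0, 22.5 and 20.8 in PG9V, and 20.6, 35.9 and 22.6 in PG9VN. WT was lowest throughout, but the size in PG9VN rested on replicate 2: log2 0.48 ± 0.18 (adjusted p = 0.096) with it and 0.20 without it. EdgeR called Lamtor4 higher when PG9VN replicate 1 was left out (adjusted p = 0.033). Lamtor2, Lamtor3 and Lamtor5 overlapped between PG9VN and WT and had log2 fold changes of 0.22, 0.14 and 0.13.

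Of the Rag GTPases, Rragc rose modestly in PG9VN. It was at 62.6, 61.1 and 65.0 CPM in WT, 68.6, 75.0 and 70.1 in PG9V, and 74.0, 86.3 and 78.8 in PG9VN. WT lay below all mutant libraries, which overlapped with each other, and the PG9VN change was 1.27-fold (log2 0.34 ± 0.08, adjusted p = 0.017), a call lost when WT replicate 1 or WT replicate 2 was left out and when the 6 compared libraries were fitted alone. Rraga, its partner in the heterodimer, was at 67.7 to 72.5 CPM in WT and 66.8 to 76.4 in PG9VN (log2 0.05 ± 0.08, adjusted p = 0.68). Rragd, the alternative to Rragc, varied widely within genotypes, at 97.0, 159 and 90.3 CPM in WT and 139, 81.4 and 132 in PG9VN, and its interval (log2 -0.55 to 0.60) was the widest in this group.

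Flcn encodes folliculin, the GTPase-activating protein for RagC and RagD through which TFEB is controlled. It was at 56.3, 56.3 and 59.2 CPM in WT, 71.7, 71.0 and 67.1 in PG9V, and 69.4, 73.5 and 75.2 in PG9VN. All 6 mutant libraries lay above all WT libraries, and the mutant lines overlapped. Against WT the change was 1.27-fold in PG9VN (log2 0.34 ± 0.07, adjusted p = 0.0083) and 1.22-fold in PG9V (log2 0.29 ± 0.07, adjusted p = 0.079). PG9VN and PG9V differed by log2 0.06 ± 0.07 (95% interval -0.10 to 0.21). The PG9VN call was kept under 17 of 18 alternatives and lost when the most abundant transcript alone was used, and in PG9V the gene passed under 4 of 18. Fnip2, a binding partner of folliculin from the pathway list, rose more, at 20.3 to 25.7 CPM in WT, 31.9 to 37.9 in the PG9V mice and 51.2 to 54.1 in PG9VN, with no overlap. It was called in PG9VN against WT (log2 1.17 ± 0.11, adjusted p = 0.00015), in PG9V against WT (0.54 ± 0.11, 0.042) and between the lines (0.63 ± 0.11, 0.018), and the calls in PG9V and between the lines were lost under 10 and 4 of 18 alternatives.

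**Figure D4:**
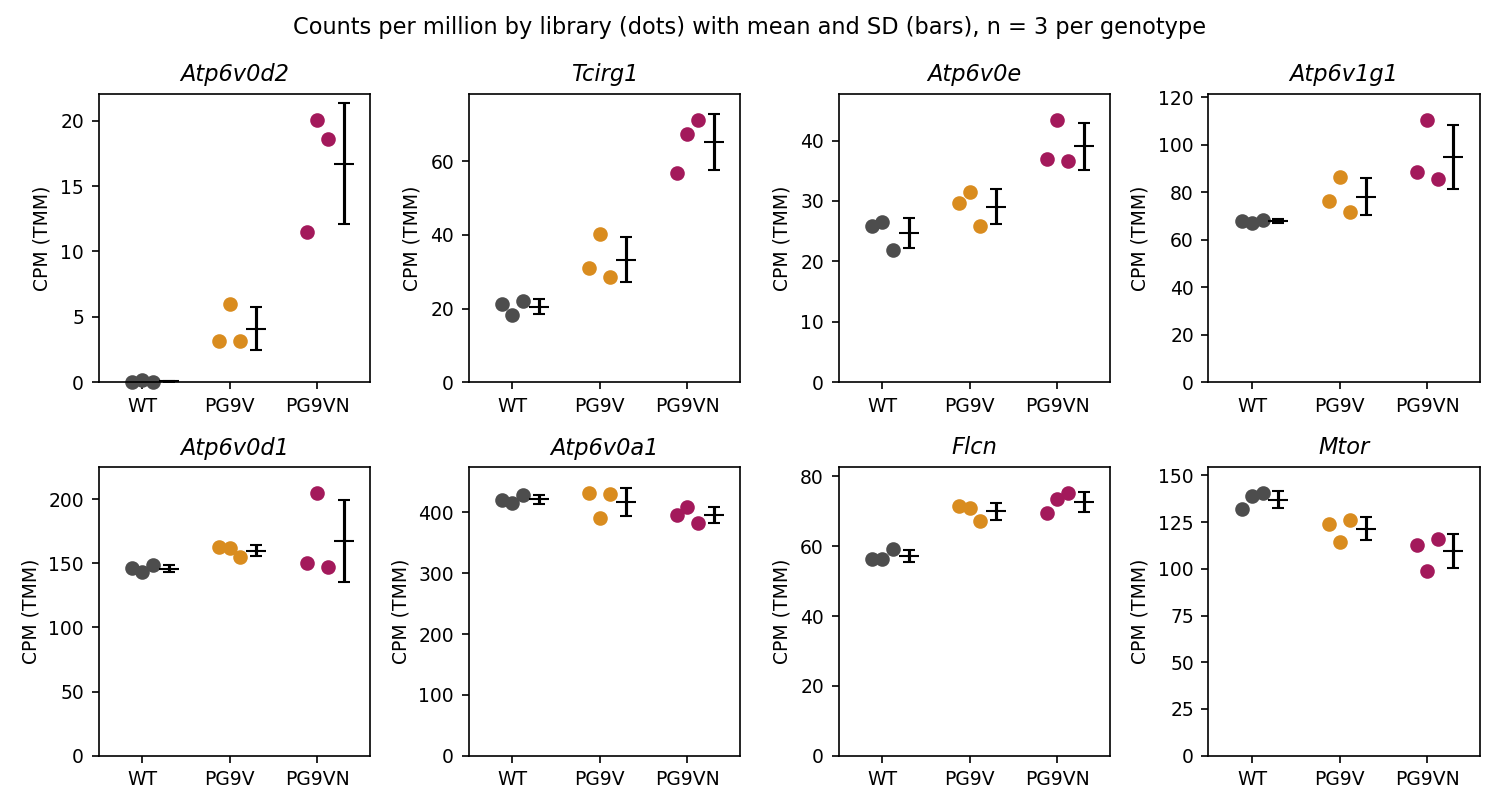
CPM of 8 members in each of the 9 libraries (dots), with mean and SD (bars) of 3 libraries per genotype, on axes that start at 0. For Atp6v0d2 and Tcirg1 the 3 genotypes do not overlap, and all 6 mutant libraries lie above WT for Flcn and below WT for Mtor. Atp6v0a1 stays near its WT level. Atp6v0d1 does so except in PG9VN replicate 2, although its PG9V libraries all lie above WT.

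None of the 3 TFEB family genes was called at the RNA level in PG9VN against WT by edgeR, by DESeq2 or by limma-voom, and 1 had an unadjusted p under 0.05. That gene was Tfeb, at 12.6, 9.99 and 12.6 CPM in WT, 13.0, 17.0 and 13.2 in PG9V, and 13.4, 22.6 and 15.5 in PG9VN. WT lay below all mutant libraries, with replicate 2 highest in each mutant line. The log2 fold change in PG9VN was 0.55 ± 0.20 (95% interval 0.09 to 1.01, adjusted p = 0.092), and 0.30 without PG9VN replicate 2. Without PG9VN replicate 1, edgeR called Tfeb higher (log2 0.69, adjusted p = 0.040). Tfe3 was at 41.7 to 43.5 CPM in WT and 44.1 to 49.6 in PG9VN (log2 0.14 ± 0.07, adjusted p = 0.21). Mitf was at 12.1 to 14.3 CPM in WT and 11.1 to 14.3 in PG9VN (log2 -0.09 ± 0.13, adjusted p = 0.68). A further family member, Tfec, known from macrophages and held in the pathway list, did not pass the filter, with 4 to 6 counts in the WT libraries, 2 to 7 in PG9V, and 4, 15 and 19 in PG9VN. These are RNA levels and say nothing of where the proteins were.

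Mtor, the kinase of mTORC1, was the member called lower in PG9VN. It was at 132, 139 and 140 CPM in WT, 124, 115 and 126 in PG9V, and 113, 99.0 and 116 in PG9VN. WT lay above all mutant libraries, and PG9V and PG9VN overlapped. The change against WT was log2 -0.33 ± 0.08 (adjusted p = 0.027). It depended on the processing: with a correction for transcript length it was -0.05 with an adjusted p of 0.59, and the call was also lost without each of the WT libraries. Rptor, the raptor scaffold that picks mTORC1 substrates, was at 78.5 to 83.8 CPM in WT and 71.1 to 73.9 in PG9VN, without overlap (log2 -0.17 ± 0.07, adjusted p = 0.11). Its main coding transcript Rptor-201 was at 54.6, 56.9 and 64.9 CPM in WT and 40.4, 40.7 and 44.2 in PG9VN, and with the most abundant transcript of each gene in place of the sum Rptor was called lower (log2 -0.51, adjusted p = 0.013). The summed gene was also called lower by DESeq2 (log2 -0.19, adjusted p = 0.048), and with the length correction it was at log2 0.02.

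Without regard to the test, 13 of the 34 members had all PG9VN libraries above all WT libraries (20.3% of all genes tested did) and 5 had all below (17.2%). For PG9V against WT these counts were 14 (16.5%) and 2 (13.2%), and for PG9VN against PG9V 4 (12.2%) and 4 (8.93%). In length-scaled levels (counts divided by transcript length, each library brought to the same total), the pump was led in WT by Atp6v0c at 1005, Atp6v1g2 at 455 and Atp6v1b2 at 399. Atp6v0d2 was at 0.0459 on that scale in WT and 13.1 in PG9VN, and Tcirg1 at 27.7 and 78.7. In PG9VN Atp6v0d2 thus stayed below Tcirg1, Atp6v0e (77.7) and every other pump gene among the 34 members.

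Genes around the members moved in both directions. Of 14 tested assembly factors and regulators of the pump, 1 was higher and 4 were lower in PG9VN against WT (background as above, 11.5% and 7.22%), with a median log2 fold change of 0.06. Ccdc115, an assembly factor in the endoplasmic reticulum, was at 12.6 to 14.7 CPM in WT and 16.9 to 24.2 in PG9VN (log2 0.55 ± 0.14, adjusted p = 0.024), a call lost without any 1 of the WT libraries. Dmxl1 and Dmxl2, the rabconnectins that help V1 join V0, fell by log2 0.49 ± 0.10 and 0.45 ± 0.11 (adjusted p = 0.0083 and 0.020). With the length correction their changes were -0.15 and -0.18, and neither was called. The call of Dmxl2 was also lost without any 1 of the WT libraries and without PG9VN replicate 3. Ncoa7, a TLDc protein that binds the pump, was at 70.8 to 84.8 CPM in WT and 49.7 to 58.0 in PG9VN (log2 -0.56 ± 0.10, adjusted p = 0.0045), a call kept under all 18 alternatives. The remaining lower gene, Oxr1, is named after its values were seen (log2 -0.53 ± 0.16, adjusted p = 0.048), and its call was lost under 12 alternatives. In PG9V against WT their log2 fold changes ran from -0.28 to 0.15, and none was called.

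Of 18 tested genes for amino acid and cholesterol sensing at the lysosome, 4 were higher and 2 lower in PG9VN against WT (background 11.5% and 7.22%), and 2 were higher in PG9V (Slc15a3 and Fnip2, background 1.62%). Slc15a3, a lysosomal histidine and peptide carrier of immune cells, was at 1.80, 1.90 and 1.59 CPM in WT, 4.23, 7.89 and 4.41 in PG9V, and 17.1, 20.6 and 21.4 in PG9VN. The genotypes were fully separate, with log2 fold changes of 3.48 ± 0.26 in PG9VN (adjusted p = 5.6e-05) and 1.64 ± 0.25 in PG9V (adjusted p = 0.012) against WT. The call in PG9V was lost without any 1 of the WT libraries. Slc3a2, the heavy chain of the amino acid exchanger that brings in leucine, rose by log2 0.61 ± 0.12 in PG9VN (adjusted p = 0.0081). Gatsl2, also called Castor2, a relative of the arginine sensor, fell by log2 0.46 ± 0.07 (adjusted p = 0.0027), at 199 to 201 CPM in WT and 139 to 150 in PG9VN. Sesn2, a leucine sensor, and Slc36a1, an amino acid carrier, were named after their values were seen: log2 0.51 ± 0.15 and -0.32 ± 0.09, calls lost under 11 and 12 of 18 alternatives.

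In the GATOR and KICSTOR complexes, which restrain or relieve the Rag GTPases, 1 of 12 genes was called lower in PG9VN against WT (background 7.22%). Depdc5, the GATOR1 subunit mutated in familial epilepsies, was at 66.6, 64.3 and 61.3 CPM in WT, 54.7, 52.0 and 54.6 in PG9V, and 42.8, 47.4 and 43.8 in PG9VN. The genotypes did not overlap, and the gene fell by log2 0.52 ± 0.07 in PG9VN (adjusted p = 0.0013), while PG9V stood at -0.25 ± 0.07 (adjusted p = 0.14). Of 15 mTORC1 partners and effectors, 1 was higher and 2 were lower (background 11.5% and 7.22%). Deptor, a subunit that inhibits mTOR, was at 35.5 to 39.2 CPM in WT, 23.4 to 24.1 in the PG9V mice and 13.8 to 20.1 in PG9VN, a drop by log2 1.06 ± 0.13 in PG9VN (adjusted p = 0.00072) and 0.64 ± 0.13 in PG9V (adjusted p = 0.045). The PG9V call was lost under 9 of 18 alternatives. Eif4ebp1, the translation repressor that mTORC1 inactivates, rose by log2 0.77 ± 0.18 (adjusted p = 0.020), and Ulk1, an autophagy kinase, fell by log2 0.29 ± 0.07 (adjusted p = 0.021), each lost under 4 alternatives. Summed neuron markers were also lower in the mutant libraries. The sum of 11 thalamus markers was 981 to 1156 CPM in WT, 745 to 829 in the PG9V mice and 367 to 589 in PG9VN, with 7 of 11 called lower in PG9VN. That of 10 astrocyte markers was 3950 to 4174, 5362 to 6162 and 6863 to 8572, with 6 of 10 called higher. The part of these marker changes in the values above was not tested.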

How the data were processed

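The authors deposited estimated counts (expected counts, in fractions) for each transcript and library, without scaling for depth or transcript length. Of these values 59.6% are not whole (tolerance 0.001). The submitters' processing notes name kallisto 0.43.1, HISAT2 2.0.5, Trimmomatic 0.33 and FastQC, and genome build mm39. Which of them made the counts, the annotation and the strand setting are not given in the sources used. The table had been planned for as genes. Counts were therefore summed per symbol and rounded. Of 177 transcripts whose symbol a spreadsheet had turned into a date, 173 were resolved and 4 left out. Members and lists were chosen with earlier results of these data known. All members are accounted for, those called being described in full, and up to 4 genes with the smallest p are named from each pathway list.

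edgeR 4.0.16 (R 4.3.3; TMM, filterByExpr, robust quasi-likelihood fit on all 9 libraries) gave log2 fold changes and 95% intervals, with Benjamini-Hochberg adjustment over 17398 genes and a threshold of 0.05. It was tested on simulated data with 50 genes per fold size, where 6 of 101 calls were false. Replicate numbers follow accession order. Alternatives were DESeq2 1.42.0, limma-voom (limma 3.58.1), other size factors and filters, a Y-linked covariate (7 libraries held Y-linked counts and 2 nearly none), a length correction, the most abundant transcript, the 6 compared libraries, and each library left out. Lengths came from GENCODE M21 and matched 98.6% of transcripts. Isoform ratios used scipy 1.17.1. Total counts were 27150311 to 35349014, and counting intervals cover counting error only. Some items that the lists cover are not reported here.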

Additional observations from a re-analysis of the deposited data

How the results depend on the processing

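With the 6 compared libraries alone, 5 members were higher and 0 lower in PG9VN against WT. Over all genes, 2002 higher and 1256 lower calls with all libraries became 1335 and 608 in that fit. In PG9VN against WT the members' lower count was also 0 with no filter and with the length correction (964 and 1060 over all genes). It was 2 with the most abundant transcript and with DESeq2 (889 and 1823 over all genes). Members higher in PG9V against WT numbered 2 with DESeq2's size factors in edgeR, with no filter and with the Y-linked covariate, and 3 with the length correction, the 6 libraries and DESeq2 (Atp6v0d2, Tcirg1 and Flcn). Leaving out 1 library at a time, the counts ran from 4 to 9 higher and 0 to 3 lower in PG9VN against WT, 1 to 3 and 0 to 0 in PG9V against WT, and 0 to 3 and 0 to 1 in PG9VN against PG9V. The 0 higher in PG9VN against PG9V came without PG9V replicate 1, PG9V replicate 3 or PG9VN replicate 3. With 1 library left out, calls over all genes ran from 1276 to 2365 higher and 533 to 2014 lower in PG9VN against WT. Those in PG9V against WT ran from 102 to 620 and 6 to 269, and in PG9VN against PG9V from 16 to 746 and 2 to 374. Over all genes, 473 higher and 116 lower calls in PG9VN against PG9V became 17 and 2 without PG9V replicate 1 and 857 and 376 with DESeq2. In PG9V against WT, 281 and 26 became 564 and 246 with the 6 libraries, 321 and 27 with the length correction, and 575 and 191 with DESeq2. With DESeq2's size factors, no filter and the Y-linked covariate, these calls were 282 and 30, 273 and 27, and 252 and 16.

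The log2 ratio of Atp6v0d2 to Atp6v0d1 differed from WT by 6.64 in PG9VN and 4.65 in PG9V. These were 4.74 and 2.86 with a pseudocount of 0.5 CPM, and 8.08 and 6.07 with 0.02. Small changes that were not called often turned sign, among them those of 12 members in PG9VN against WT with the length correction. Atp6v0d1 in PG9VN against PG9V was -0.003 with the length correction and -0.092 to 0.152 with 1 library left out (negative without PG9VN replicate 2), and Atp6v0a1 in PG9V against WT was 0.017 and -0.039 to 0.031 (positive without PG9V replicate 2). The cause was not tested. Atp6v0d2, Tcirg1 and Atp6v0e were called in PG9VN against WT under all 18 alternatives. No paired analysis was possible because the labels give no replicate numbers that link mice of different genotypes.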

Other observations

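Genes for lysosomal ion channels and carriers, a list not described above, changed in both directions. Of 16 genes, 8 were higher and 3 lower in PG9VN against WT (11.5% of all genes tested were called higher and 7.22% lower). In PG9V against WT 1 was higher, where 1.62% of all genes tested were. Slc11a1 (Nramp1), the metal carrier of macrophage phagosomes, was at 3.39, 3.18 and 2.62 CPM in WT, 7.28, 8.35 and 6.64 in PG9V, and 11.2, 13.8 and 13.2 in PG9VN. The 3 genotypes were separate, and edgeR gave log2 fold changes of 2.05 ± 0.16 (adjusted p = 5.9e-05) and 1.28 ± 0.16 (adjusted p = 0.0049) for PG9VN and PG9V against WT. Mcoln3, a calcium-permeable endolysosomal channel, was at 0.242, 0 and 0.223 CPM in WT, 1.49, 3.95 and 0.894 in PG9V, and 6.69, 6.27 and 8.56 in PG9VN (log2 5.47 ± 0.75 in PG9VN against WT, adjusted p = 0.0016, a fitted value that depends on WT libraries near 0).

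P2rx4, an ATP-gated channel of lysosomes and microglia, was at 15.8 to 17.9 CPM in WT and 24.8 to 31.0 in PG9VN (log2 0.74 ± 0.10, adjusted p = 0.0013). Clcn7, the chloride-proton exchanger that works beside the pump, was at 57.2 to 59.5 CPM in WT and 75.8 to 82.3 in PG9VN (log2 0.45 ± 0.07, adjusted p = 0.0032), without overlap. Among the lower genes, Clcn3 (log2 -0.42 ± 0.08) and Clcn6 (-0.31 ± 0.09), exchangers of endosomes, are named after their values were seen. The call of Clcn6 was lost under 11 of 18 alternatives. Ostm1, the partner of Clcn7 in the list of pump regulators, was not called. Microglia and storage phagocyte markers were higher, and neuron markers lower, in the same libraries, and their part in these values was not tested.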
